A study of Mus musculus with 2 samples.

Results

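The genes described here encode the motors that carry cargo along microtubules: the kinesins with their light chains and accessory subunit, the chains of cytoplasmic dynein, and the numbered subunits of its partner complex dynactin. They were chosen by symbol (Kif, Klc, Kifc and Kifap3 for kinesins, Dync and Dynl for dynein, Dctn1 to Dctn6 for dynactin). The symbol rule itself uses no measured values, but members and classes were set with earlier results of these data known. The rule gave 68 of 55536 annotated genes. By known function they were split into 22 transport kinesins and their subunits, 13 mitotic kinesins, 11 other kinesins (mostly of cilia or without a settled transport role), 14 chains of dynein-1 or shared light chains, 2 chains of dynein-2 and 6 dynactin subunits. RNA came from tissue labelled as a layer of hippocampus, with no layer named, of B6CASTF1/J mice, an F1 cross of C57BL/6J with CAST/EiJ. All animals were male and 25 days old, no treatment is named, and there was 1 group with 2 biological replicates. The labels give the replicates separate biosample identifiers and one shared donor identifier, so the spread between them may be partly technical, and no comparison between groups and no p-value was possible. It was bulk RNA, in which fewer cells of a type and less RNA per cell cannot be told apart.

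Kinesins and dynein turn ATP hydrolysis into steps along microtubules. Most transport kinesins walk toward the plus end, which in axons points away from the cell body, and cytoplasmic dynein walks toward the minus end and needs dynactin and an adaptor to move far. Neurons rely on both to move vesicles, mitochondria, receptors and signalling endosomes over long distances, while mitotic kinesins build and move the spindle and complete cytokinesis in dividing cells.

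Expected counts, RSEM's estimates of reads per gene, summed to 30635891 for replicate 1 and to 35713471 for replicate 2, of which the motor genes took 0.998% and 1.02%. Levels are given as TPM, each transcript's share of all transcripts after division by its length, which allows genes to be compared within a library. Markers fitted brain tissue, and the lists held no gene particular to hippocampus, so that label was not examined. All 8 pan-neuronal markers were above 1 TPM with a median of 320 TPM. The 6 astrocyte and 6 oligodendrocyte markers were all detected, with medians of 147 and 214 TPM. Microglial and endothelial markers had medians of 21.7 and 18.6 TPM. Of 12 markers of dividing cells, 1 reached a mean of 1 TPM, and of 8 ependymal and motile cilium markers, 4 did.

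At 25 days the tissue held RNA of every transport kinesin and little of the mitotic ones. All 22 transport members reached a mean of 1 TPM, the threshold for detection used here, against 1 of 13 mitotic kinesins (7.69%). The contrast depends on how the classes were drawn. Kif2a, with a mean of 54.7 TPM, was counted among the other kinesins, whereas Kif2b and Kif2c were counted as mitotic. The mitotic count moved with the setting, to 5 at a threshold of 0.5 TPM, 0 at 5 TPM and 7 in the kallisto table, whereas transport members numbered 22, 20 and 22. Detected as well were 7 of 11 other kinesins, 13 of 14 dynein chains, both dynein-2 chains and all 6 dynactin subunits. In all, 51 of 68 members (75.0%) were detected, beside 58.9% of the 22015 nuclear protein-coding genes. Mean TPM was over 10 for 35 members and over 100 for 13, and Kif2b and Kif12 had a count of 0 in both libraries, a result that allows up to 3 counts, or 0.0979 CPM for the first library and 0.084 CPM for the other (CPM being counts scaled to library size).

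Transport members had a median of 51.8 TPM, dynein chains 54.6 and dynactin subunits 60.8, against 3.42 over nuclear protein-coding genes. Mitotic kinesins had a median of 0.405 TPM. On the scale log2(TPM + 0.1), the transport median minus the mitotic median was 6.72 ± 0.23 (SD, n = 2), and the lowest transport member, Klc3, lay above every mitotic kinesin other than Kif22 in both libraries. Summed TPM of the transport class was 1982 in replicate 1 and 2049 in replicate 2, and that of the mitotic class was 8.61 and 7.16. The plot of all members by class shows these levels gene by gene.

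**Figure D1:**
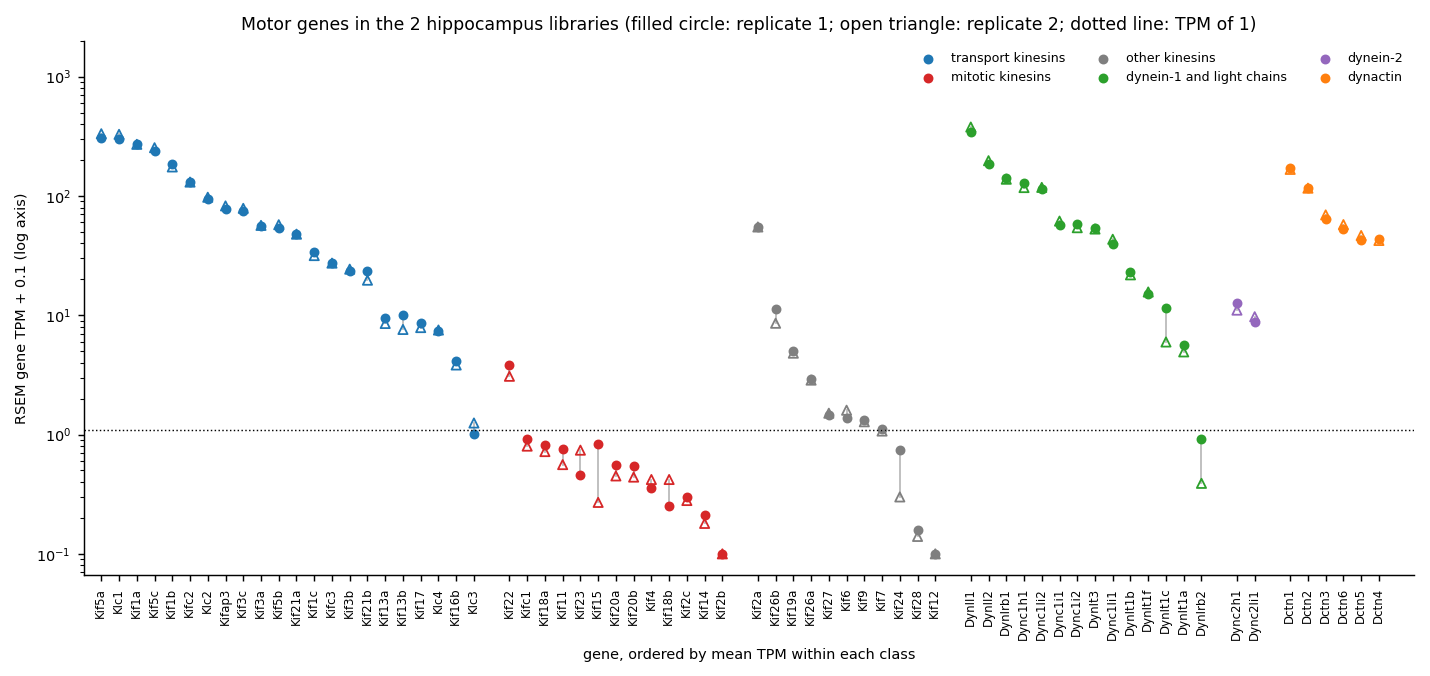
TPM + 0.1 of each of the 68 motor genes on a log axis, ordered by mean within each class, with a filled circle for replicate 1, an open triangle for replicate 2 and a dotted line at 1 TPM. All transport, dynein-2 and dynactin genes lie at or above the line on average, and 12 of 13 mitotic kinesins lie below it.

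Kinesin-1 is a tetramer of heavy chains, which hold the motor, and light chains, which bind cargo adaptors. Kif5a, the neuronal heavy chain on chromosome 10 (127225696 to 127263348, minus strand, mm10), had 303 TPM in replicate 1 and 332 in replicate 2. Its mean, 318 ± 20.3 TPM, was the second highest of all members by RSEM. Kif5c, also enriched in neurons, had 239 and 254 TPM. Kif5b, the heavy chain made in most tissues, had 54.0 and 57.3 TPM. The order Kif5a, Kif5c, Kif5b was the same in both libraries with no overlap of replicate values, and Kif5a over Kif5c was 1.29 ± 0.0297 in TPM. Of the 3 heavy chains' summed TPM, Kif5a took 51.3%, Kif5c 39.8% and Kif5b 8.98%.

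Klc1 was the leading light chain, with 299 and 328 TPM. Klc2, which also serves neuronal kinesin-1, had 94.5 and 97.4 TPM. Klc4 had 7.25 and 7.42 TPM, and Klc3 stood at the detection threshold with 0.92 and 1.15 TPM from 33 and 47 counts. Klc1 thus took 75.0% of light chain TPM, and Klc1 over Klc2 was 3.26 ± 0.148. Heavy chains summed exceeded light chains summed by 1.48 ± 0.0045 times in TPM. Without division by length, in expected counts, this ratio was 4.35, since the leading Kif5 transcripts are longer than those of the light chains.

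Kinesin-2 pairs Kif3a with Kif3b or Kif3c, and Kifap3 binds the pair as the cargo-linking subunit. Kifap3 had 78.1 and 82.4 TPM. Kif3a, the common partner, had 56.0 and 56.5 TPM. Of the alternative partners, Kif3c, known mainly from neurons, had 74.2 and 78.6 TPM, while Kif3b, which also works in cilia, had 23.5 and 24.2 TPM. The partners did not overlap, and Kif3c over Kif3b was 3.20 ± 0.0585. Kif17, a kinesin-2 that works as a homodimer and is known for carrying NMDA receptor vesicles in dendrites, was lower at 8.43 and 7.78 TPM.

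The kinesin-3 family carries vesicles that supply the synapse. Kif1a, the motor of synaptic vesicle precursors and dense core vesicles (chromosome 1, 93015464 to 93101951, minus strand), had 272 and 271 TPM. Kif1b, whose splice forms carry mitochondria or synaptic vesicle precursors, had 185 and 175 TPM. Kif1c, linked to dense core vesicles and Golgi traffic, had 33.6 and 31.5 TPM. These levels kept that order in both libraries with gaps wider than the replicate spread, and Kif1a over Kif1b was 1.51 ± 0.0573. Kif13a, an endosomal motor, had 9.31 and 8.43 TPM. Kif13b had 9.90 and 7.50 TPM, a range that encloses both values of Kif13a, so the order of this pair was not resolved. Kif16b, which binds early endosomes, was the lowest of the family at 4.0 and 3.73 TPM.

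Among the remaining transport members, Kifc2, a minus-end-directed kinesin of the kinesin-14 family found in neurons, had 131 TPM in both libraries, the sixth highest of the class. Kifc3, its minus-end-directed relative, had 27.2 and 27.3 TPM. Kif21a had 48.2 and 47.7 TPM, and its paralog Kif21b, which is found in dendrites and slows microtubule growth, had 23.3 and 19.6 TPM. Kif21a was above Kif21b in each library.

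Proteins that link kinesins to cargo were drawn from a list of 24 adaptors, of which 23 matched a symbol, and all 23 were detected with a median of 85.3 TPM. Mapk8ip3, a scaffold that joins kinesin-1 to vesicles and to JNK signalling, had 171 and 160 TPM. Mapk8ip1 had 144 and 159 TPM, and Kidins220, a neurotrophin receptor partner, 148 and 144 TPM. The mitochondrial adaptors Trak1 and Trak2 had means of 103 ± 3.01 and 88.3 ± 3.27 TPM (SD, n = 2). The median of the adaptor list thus lay above that of the transport motors themselves, and its lowest gene, Grip1, had 12.6 and 13.1 TPM.

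Dynein-1 is built on 2 copies of a very large heavy chain, to which intermediate and light intermediate chains are bound. Dync1h1, the heavy chain with the motor (chromosome 12, 110601452 to 110666945, plus strand), had 127 and 117 TPM. Its leading transcript, with 77 exons and 14342 bases, took 91.1% of the gene's TPM. Dync1i1, the intermediate chain found mainly in neurons, had 56.7 and 61.5 TPM. Dync1i2, the intermediate chain of most tissues, had 58.2 and 54.1 TPM. The intermediate chains could not be ordered: Dync1i1 over Dync1i2 was 0.975 in replicate 1 and 1.14 in replicate 2. Dync1li2, a light intermediate chain, which is the part that adaptors grip, had 115 and 118 TPM, and its paralog Dync1li1 had 39.5 and 43.3 TPM.

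That gap between the light intermediate chains shrank when short transcripts were set aside. The ratio Dync1li2 over Dync1li1 was 2.82 ± 0.133 in the deposited gene table, but the noncoding transcript Dync1li2-208, 144 bases long, took 40.7% of the gene's TPM from about 43 expected counts in replicate 1. Without transcripts under 300 bases the ratio was 1.67, and in the kallisto table, where that transcript stood at 0, it was 1.72. Dync1li2 remained the higher of the pair in each of these.

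Dynein regulators and most activating adaptors were detected. All 5 listed regulators were above 1 TPM, with a median of 37.6 TPM. Pafah1b1, the lissencephaly gene whose product holds dynein on the microtubule, was the highest at 171 and 178 TPM, above Dync1h1 in both libraries. Nudc had a mean of 51.4 ± 1.93 TPM, and Ndel1, a partner of Pafah1b1 on dynein, had 37.7 and 37.5 TPM. Of 13 activating adaptors, which join dynein to dynactin and cargo, 10 were detected with a median of 21.9 TPM over the list. Bicdl1 led with 49.9 and 54.1 TPM, followed by Rab11fip3 with 44.2 and 40.9 TPM and Ccdc88a with 30.1 and 24.3 TPM.

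The light chains are small proteins at the base of the dynein complex, several of which also bind proteins outside it. Dynll1, of the LC8 family (chromosome 5, 115297110 to 115300999, minus strand), was the highest of all 68 members with 340.3 and 378 TPM. Dynll2, its paralog on chromosome 11 (87979525 to 87987533, minus strand), had 185 and 197 TPM. The coding sequences of this pair are printed because they are of one length and the level of one gene depends on telling its reads from those of the other. They come from the GENCODE M21 transcripts Dynll1-202 and Dynll2-201, run from start to stop codon, and carry in capitals each base that differs between the 2 genes.
Dynll1: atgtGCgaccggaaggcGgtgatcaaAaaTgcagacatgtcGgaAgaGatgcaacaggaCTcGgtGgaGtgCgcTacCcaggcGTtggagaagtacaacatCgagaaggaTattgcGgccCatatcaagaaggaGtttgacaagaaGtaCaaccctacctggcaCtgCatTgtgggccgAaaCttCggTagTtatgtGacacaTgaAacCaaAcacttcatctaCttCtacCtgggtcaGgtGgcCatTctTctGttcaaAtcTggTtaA
Dynll2: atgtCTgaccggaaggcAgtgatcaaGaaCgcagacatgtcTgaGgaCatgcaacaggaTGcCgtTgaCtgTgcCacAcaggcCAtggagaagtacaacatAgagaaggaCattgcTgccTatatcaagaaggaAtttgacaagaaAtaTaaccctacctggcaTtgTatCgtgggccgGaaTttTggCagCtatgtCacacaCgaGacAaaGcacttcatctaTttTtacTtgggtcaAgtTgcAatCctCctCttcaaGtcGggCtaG

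Of 270 positions, 219 were identical (81.1%) and 51 differed, with the differences spread along the whole frame, and the deposited posterior SD of the count was 0 for both genes in both libraries. The order of the pair depended on the scale. In TPM, Dynll1 over Dynll2 was 1.88 ± 0.0562, whereas in expected counts Dynll2 was higher, with 9158 and 11402 counts against 4040 and 5239, a ratio of 0.450. The leading Dynll2 transcript is 2476 bases long and the leading Dynll1 transcript 539 bases, so the same number of reads gave Dynll1 more TPM. Dynll1-203, a transcript with no annotated coding region, took 46.1% of Dynll1's TPM, and the coding Dynll1-202 took 38.2%. In the kallisto table that order was turned, with 58.3% for Dynll1-202 and 39.0% for Dynll1-203.

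Of the roadblock light chains, Dynlrb1 had 141 and 138 TPM. Dynlrb2, which is known from motile cilia and stood on the ependymal list as well, had 0.81 and 0.29 TPM from 7 and 3 counts, and was the only dynein chain under the threshold. Their coding sequences were 71.8% identical over 291 bases. Dynlt3, a Tctex-type light chain on the X chromosome, had 53.4 and 52.7 TPM.

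The other Tctex-type chains come from a cluster of near-identical genes on chromosome 17 between 6306340 and 6655900. Over 342 coding bases Dynlt1a, Dynlt1c and Dynlt1f did not differ at all, and Dynlt1b differed from them at 1 base. Dynlt1b had 23.1 and 21.7 TPM and Dynlt1f 15.0 and 15.6 TPM. Dynlt1c had 11.4 and 5.87 TPM and Dynlt1a 5.50 and 4.83 TPM. How reads were divided among these copies is uncertain: the posterior SD was 4.10% to 7.75% of the count in replicate 1 and 4.06% to 9.41% in replicate 2, against 0 for nearly all other members, and the pseudogene Dynlt1-ps1 was given 8.84 and 12.2 TPM by RSEM and 0 by kallisto. Their separate levels, and the fall of Dynlt1c between replicates, are therefore uncertain.

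Dynactin links dynein to cargo and makes its runs longer. Dctn1, the large subunit that binds both dynein and the microtubule (chromosome 6, 83165920 to 83200117, plus strand), had 170 and 167 TPM. Dctn2, known as dynamitin, had 116 TPM in both libraries. It lies on chromosome 10 from 127266368 to 127281950 on the plus strand, next to Kif5a on the minus strand. Of the other subunits, Dctn3 had 63.4 and 69.3 TPM, Dctn6 53.1 and 57.4 TPM, Dctn5 42.7 and 46.5 TPM and Dctn4 43.3 and 42.3 TPM. For Dctn6, RSEM put 14.7% of the TPM in protein-coding transcripts. The noncoding transcript Dctn6-210 held 51.8% of the gene by RSEM and 26.7% by kallisto. In kallisto the coding Dctn6-201 led instead with 38.2%, and the coding Dctn6-203 and Dctn6-202 held 16.9% and 6.55%. The coding share of Dctn6 thus depended on the table. Dctn1 and Dctn2 stood clear of the other 4, while Dctn4 and Dctn5 overlapped. Dctn1 over Dync1h1 was 1.38 ± 0.0618 in TPM but 0.349 in expected counts, the heavy chain's transcript being several times longer.

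The complex also has a short actin-like filament and its caps. All 6 genes listed for these were detected, with a median of 93.2 TPM. Capzb, a capping protein subunit, had 189 and 204 TPM, Capza2, its partner, 135 and 131 TPM, and Actr1b, a filament subunit, 105 and 114 TPM. Capping protein also caps ordinary actin filaments, so its level does not belong to dynactin alone. The plot of shares within families sets these compositions side by side in both libraries.

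**Figure D2:**
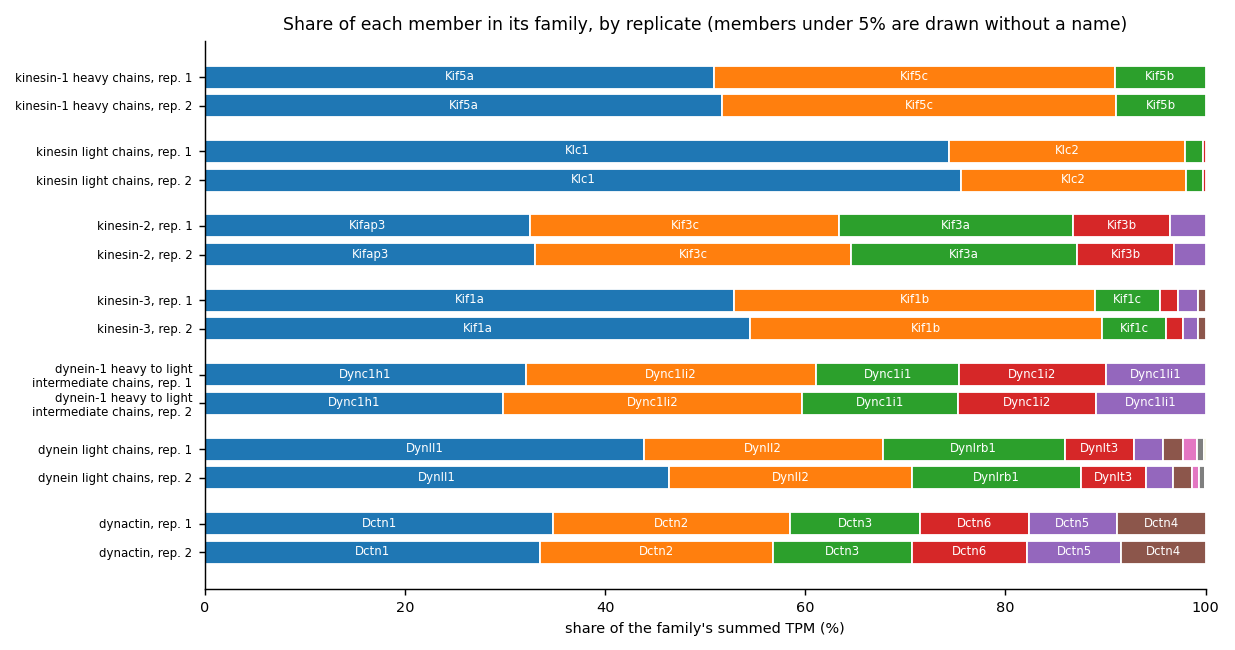
Share of each gene in its family's summed TPM, in percent, with 1 bar per replicate and members under 5% left unnamed. The leading gene was the same in both replicates in each family shown, for example Kif5a with 50.8% and 51.7%, except among the dynein-1 chains. There Dync1h1 led in replicate 1 (32.1% against 29.0% for Dync1li2) and Dync1li2 in replicate 2 (29.9% against 29.8%). Of Dync1li2's TPM, 40.7% lay in the 144-base noncoding Dync1li2-208. In kallisto Dync1h1 was above Dync1li2 in both replicates, with 181 and 159 against 110 and 107 TPM.

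Dynein-2 moves cargo from the tip to the base of cilia. Dync2h1, its heavy chain, had 12.6 and 10.9 TPM, and Dync2li1, its light intermediate chain, 8.75 and 9.62 TPM. Both lay well under the dynein-1 chains of the same kind in each library. Of 13 axonemal dynein heavy chains, which bend motile cilia, 6 were detected with a list median of 0.95 TPM. The highest was Dnah9 with 8.07 and 5.82 TPM, followed by Dnah2 with 3.39 and 1.95 TPM and Dnah1 with 1.88 and 1.84 TPM. The 8 ependymal and motile cilium markers had a list median of 1.28 TPM, with means from 0.16 to 6.45 TPM. Rarres2 was the highest with 7.04 and 5.85 TPM, followed by Rsph1 with 6.06 and 6.27 TPM. Foxj1, the master factor of motile cilia, had 3.02 and 2.82 TPM. The part of ependymal cells in these values was not tested.

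Among the other kinesins, Kif2a stood apart with 54.6 and 54.8 TPM, 70.6% of the class. It depolymerizes microtubules and limits the growth of axon branches. Kif26b, a kinesin that lacks motor activity, followed with 11.2 and 8.47 TPM, and its relative Kif26a had 2.82 and 2.76 TPM. Kif19a, which trims cilium length, had 4.88 and 4.71 TPM. Kif27, Kif6 and Kif9, all tied to motile cilia, had 1.37 and 1.41, 1.28 and 1.5, and 1.22 and 1.18 TPM. Kif7, a Hedgehog pathway kinesin of the primary cilium, fell just short of a mean of 1 with 1.01 and 0.97 TPM. Kif28 had 0.06 and 0.04 TPM.

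Kif24, which acts at centrioles, depended on the table. RSEM gave it 0.64 and 0.20 TPM, but kallisto gave it 15.9 and 11.5 TPM, of which the noncoding transcript Kif24-204 held 94.4% and 96.0%. Its coding transcript Kif24-202 was low in both tables, with 0.23 and 0.20 TPM by RSEM and 0.446 and 0.314 TPM by kallisto.

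The mitotic kinesins were all low, with expected counts between 0 and 61 per library. Kif11, the motor that pushes spindle poles apart, had 0.65 and 0.46 TPM from 61 and 53 counts. Kif18a, which damps chromosome movement, had 0.72 and 0.62 TPM, and Kif18b, of astral microtubules, 0.15 and 0.32 TPM. Kifc1, which gathers spindle poles, had 0.82 and 0.70 TPM. Its counts carried a posterior SD of 11.2% and 7.63%, since part of its reads also match other genes, and Kifc5b, outside the symbol rule, had 1.25 and 1.02 TPM. Kif4, a chromosome-bound kinesin, had 0.26 and 0.32 TPM.

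The kinesins of cytokinesis were as low. Kif23, of the central spindle, had 0.36 and 0.64 TPM, although its counts went the other way, 18 and 14. Kif20a had 0.46 and 0.35 TPM, Kif20b 0.44 and 0.34 TPM and Kif14 0.11 and 0.08 TPM. Kif15, a second spindle motor, differed most between libraries, at 0.73 and 0.17 TPM from 32 and 14 counts. Counts this low carry wide counting error, and many neighbours in the order of levels overlapped between libraries. Some did not: by RSEM, Kif18a and Kif11 lay above Kif14 and Kif2c in both. In kallisto they lay above Kif14 in both libraries, but Kif2c was higher than either, at 6.75 and 1.84 TPM. The 12 cell division markers lay in the same range, with a median of 0.56 TPM. Top2a had 1.07 and 1.61 TPM, Plk1 0.90 and 0.88 TPM, and Aurka 0.81 and 0.84 TPM.

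Kif22, a chromosome-bound kinesin and the only mitotic one with a mean over 1 TPM, had 3.71 and 2.98 TPM from 29 and 45 counts. Of its TPM, 77.8% and 41.5% lay in Kif22-205, a retained-intron transcript of 295 bases. Without that transcript the gene had 0.82 and 1.75 TPM, a mean still over 1, and in kallisto, where that transcript was at 0, it had 2.38 TPM in both libraries. The full-length coding transcript Kif22-201 had 0.27 and 0.49 TPM. Kif2c, the kinetochore depolymerase, depended more on the table, with 0.20 and 0.18 TPM by RSEM and 6.75 and 1.84 TPM by kallisto, where the retained-intron transcript Kif2c-203 alone had 6.5 and 1.31 TPM.

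Most promoters of the mitotic kinesins hold the letters TTTGAA, which those of the transport motors mostly lack. The cell cycle genes homology region, TTTGAA, is known from genes that are repressed outside the later cell cycle phases, and often lies near a CCAAT box. RefSeq promoters (GRCm38.p6, 250 bases before to 50 after the transcription start) were on hand for 51 of the 68 members. The windows below are those of the 8 mitotic kinesins with TTTGAA within 50 bases of the start, each from 60 bases before to 30 after it, 5′ to 3′ on the gene's strand. Capitals mark TTTGAA and CCAAT or their reverse complements TTCAAA and ATTGG, and in Kif20b 2 copies of TTTGAA stand side by side.
Kif11, chr19:37376322-37376411, plus strand: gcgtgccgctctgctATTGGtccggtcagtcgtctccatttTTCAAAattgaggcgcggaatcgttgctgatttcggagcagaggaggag
Kif15, chr9:122951021-122951110, plus strand: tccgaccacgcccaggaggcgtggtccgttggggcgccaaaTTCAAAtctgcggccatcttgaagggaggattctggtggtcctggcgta
Kif18b, chr11:102925095-102925184, minus strand: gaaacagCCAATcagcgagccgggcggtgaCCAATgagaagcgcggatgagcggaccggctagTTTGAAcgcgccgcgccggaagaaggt
Kif20b, chr19:34922298-34922387, plus strand: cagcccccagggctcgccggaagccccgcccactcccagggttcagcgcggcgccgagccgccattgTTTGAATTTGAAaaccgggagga
Kif22, chr7:127042391-127042480, minus strand: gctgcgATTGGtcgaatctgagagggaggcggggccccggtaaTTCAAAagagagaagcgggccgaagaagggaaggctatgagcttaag
Kif23, chr9:61946770-61946859, minus strand: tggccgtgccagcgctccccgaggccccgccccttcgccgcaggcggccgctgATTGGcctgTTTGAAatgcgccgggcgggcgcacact
Kif4, chrX:100626005-100626094, plus strand: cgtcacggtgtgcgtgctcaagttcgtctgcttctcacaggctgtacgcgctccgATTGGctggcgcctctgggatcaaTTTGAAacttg
Kifc1, chr17:33890604-33890693, minus strand: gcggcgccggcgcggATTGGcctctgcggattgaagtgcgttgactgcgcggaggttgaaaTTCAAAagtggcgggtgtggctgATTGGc

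Of 12 mitotic kinesins with a promoter in the table, 10 held TTTGAA on either strand (83.3%), against 1 of 15 transport members, 2 of 9 other kinesins, 0 of 10 dynein chains and 1 of 4 dynactin subunits. The single transport member was Kif1a and the dynactin subunit Dctn1. Over all 27025 genes with a promoter, 20.2% held the motif. Within 50 bases of the start it was present in 8 of 12 mitotic kinesins (66.7%), in 2 of 39 other members and in 5.72% of all genes, and among 10 cell division markers with a promoter 6 held it anywhere in the 300 bases. CCAAT was held by 8 of 12 mitotic kinesins, beside 17 of 39 other members (43.6%) and 41.1% of all genes. Among transport members it was in 6 of 15, and among dynactin subunits in 3 of 4. Of the 8 windows printed, 6 have it. These matches describe letters in a window and do not show that a factor binds there. The plot of motif positions shows most mitotic matches lying close to the start. The only matches of Kif14 and Kif2c lie farther upstream, at -228 and -103 bases. Kif15 and Kif22 each have another upstream match, at -234 and -215 bases.

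**Figure D3:**
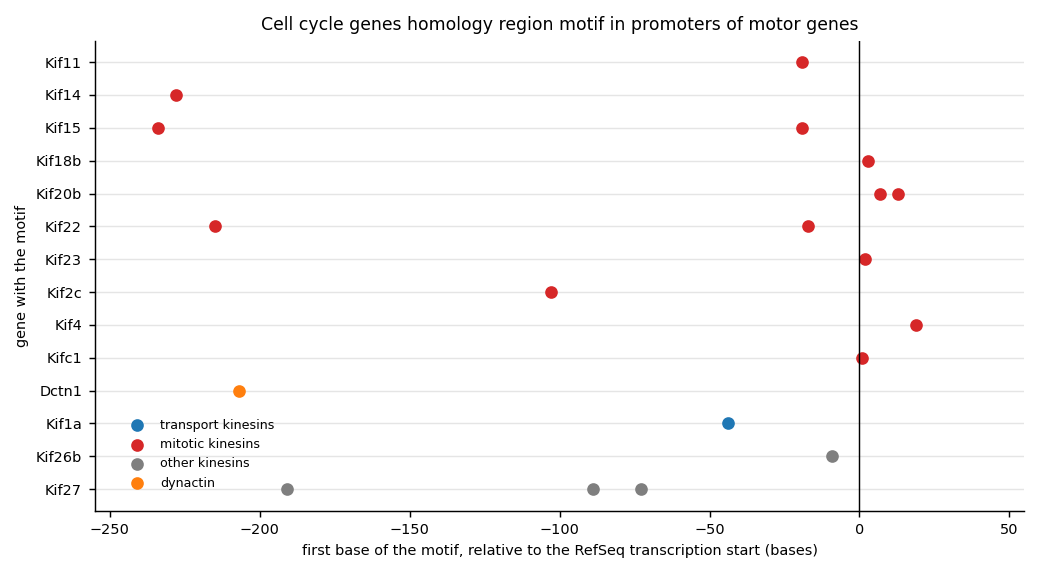
Position of the first base of each TTTGAA match, on either strand, relative to the RefSeq transcription start in bases, for the 14 motor genes with a match, coloured by class. For 8 of the 10 mitotic kinesins shown a match lies within 50 bases of the start.

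The motor genes differed little between the replicates. Mean expected counts reached 100 for 47 members, of which 0 were more than 2-fold apart after TMM scaling, beside 0.778% of all 12719 genes at that count, a background so low that a count of 0 does not set the members apart. The members' log2 ratios, replicate 2 against replicate 1, had a median of 0.06, beside 0.04 over all genes, and single members ran from -0.55 to 0.29. The lowest were Dynlt1c at -0.55, Kif26b at -0.27, Kif13b at -0.25, Dync2h1 at -0.22 and Dynlt1a at -0.16. The highest were Dctn3 at 0.29, Dctn6 at 0.24, Dync2li1 at 0.21, Dynll1 at 0.19 and Kif5a at 0.18. Directions depended on the scaling. With TMM, 33 of the 47 members (70.2%) were higher in replicate 2, beside 60.7% of all genes, and with scaling to the spike-ins 3 were (6.38%), beside 9.51% of all genes: Dctn3, Dctn6 and Dync2li1. Spike-in scaling shifted all genes alike, to a median of -0.17 over all genes and -0.14 over the members, and among the genes named above it turned the sign of Kif5a (-0.03) and Dynll1 (-0.02).

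In TMM-scaled counts the 6 dynactin genes were all higher in replicate 2, beside 60.7% of all genes. Their median log2 ratio was 0.10, beside 0.04 over all genes. With spike-in scaling 4 of them were lower and 2 higher, beside 9.51% of all genes higher. Their median was then -0.10, beside -0.17 over all genes. In TPM Dctn1 and Dctn4 were lower, beside 6785 of the 12719 genes. The ratio moved with transcript length: over the 47 members Pearson's r with log10 length was -0.35 and Spearman's rho -0.40, and over 11905 protein-coding genes they were -0.19 and -0.24. These are correlations across genes that share their 2 libraries and carry no test. The longest members, Dync1h1 at -0.06, Kif26b and Dync2h1, all had ratios below 0, and the part of length in them was not tested.

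**Figure D4:**
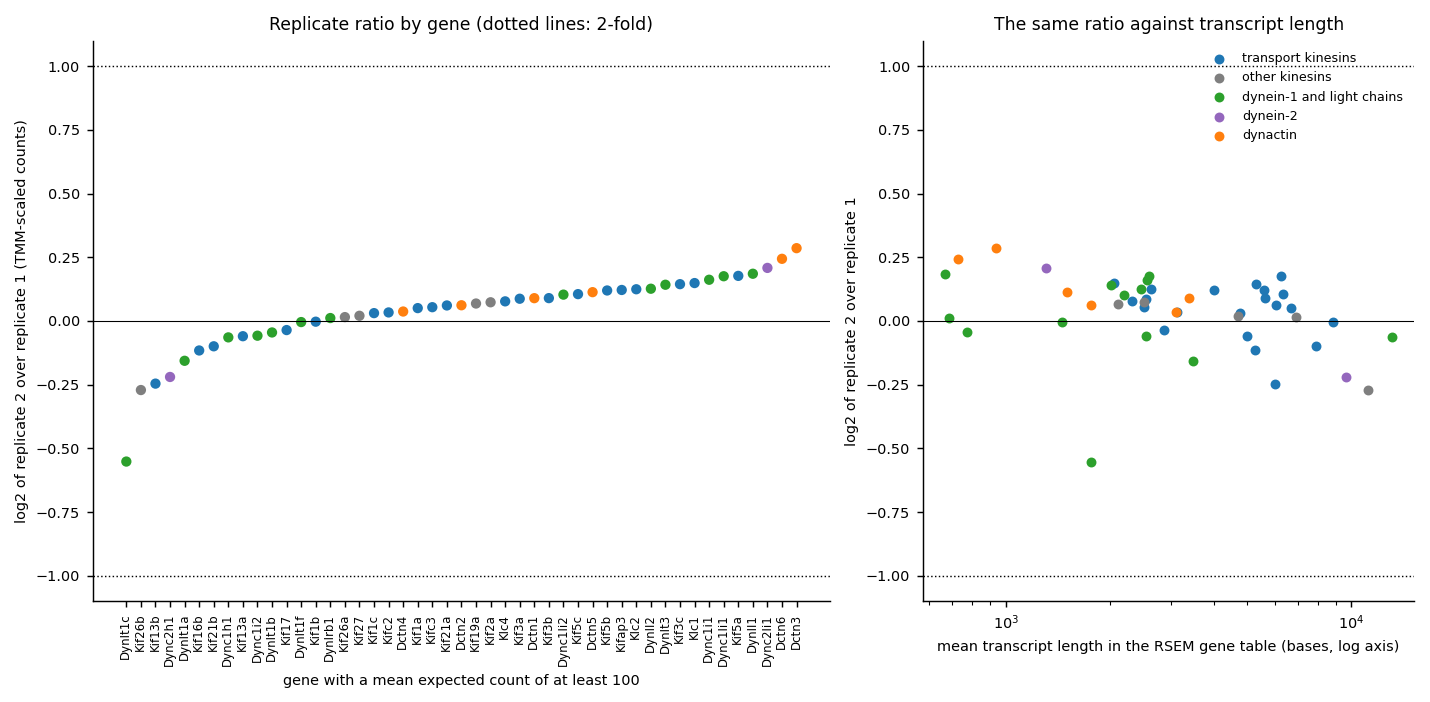
Left, log2 of replicate 2 over replicate 1 in TMM-scaled counts for the 47 motor genes whose expected counts averaged 100 or more, in rising order, with dotted lines at 2-fold. Right, the same values against transcript length in bases on a log axis, with all points inside the 2-fold lines and values between -0.55 and 0.29.

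Most of the abundant motor genes had 1 main transcript. Over the 35 members with a mean of at least 10 TPM, the leading transcript held a median of 67.8% of the gene's TPM; it held at least 50% in 27 members and at least 80% in 16. It was the same in both replicates for 33 (not for Kif21b and Dync2h1) and encoded protein in 33 (not in Dynll1 and Dctn6). Kif3b and Dynlt1b have only 1 annotated transcript, so their share of 100% and their agreement between replicates were fixed in advance. Kif5a-201 held 98.9% of its gene, Dynll2-201 97.6%, Dynlrb1-202 97.2% and Kif5c-201 91.8%. Less was held by Kifc2-201 at 85.9%, Kif1b-203 at 80.4%, Kif1a-204 at 66.5%, Klc1-202 at 54.5% and Dctn1-203 at 38.0%. The 49-exon Kif1b-203 encodes 5448 coding bases, the long form of the gene, and the 21-exon Kif1b-201, with 3450 coding bases, held 2.30%.

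Isoform shares were less firm than gene levels. In the kallisto table the leading transcript agreed for 26 of the 35 members, among them Kif3b and Dynlt1b, for which it could not differ. Klc2-204 held 42.6% of Klc2 by RSEM and 90.9% by kallisto, while Dynlrb1-202 held 97.2% and 34.8%. Dync1i2-208 held 54.4% by RSEM and 7.62% by kallisto. Kif2a's leading RSEM transcript, the 288-base Kif2a-205 with 34.0%, was at 0 in kallisto.

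At the gene level, the 2 tables differed by a common shift, and the order of members was not compared as a whole. Some members changed places: in kallisto Kif1a, with a mean of 524 TPM, lay above Kif5a with 475 TPM. The median log2 ratio of kallisto over RSEM was 0.61 over the 51 detected members and 0.65 over 12956 nuclear protein-coding genes, so the shift was not particular to motors. Detected members ran from -0.48 to 1.38 around it. The plot of both tables shows genes off that trend, among them Kif24 and Kif2c far above it, and Dync1li2, Kif2a and Kif22 below it. Each of these had a large share of its TPM in 1 short or noncoding transcript in one of the tables. Other low members also lay above it, such as Kif15 at 1.92, Kif23 at 1.82 and Kif14 at 1.76. Dctn6, with 51.8% of its RSEM TPM in 1 noncoding transcript, lay near it at 0.48.

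**Figure D5:**
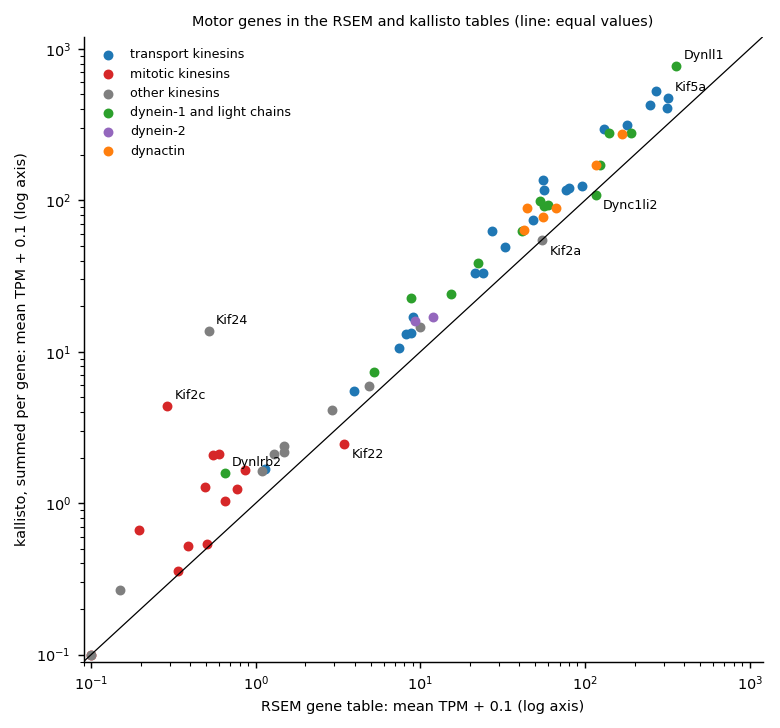
Mean TPM + 0.1 of each motor gene in the RSEM gene table (horizontal) and in the kallisto table summed per gene (vertical), both on log axes, with a line at equal values and points coloured by class. Most points lie above the line by about the same distance, and Kif24 and Kif2c lie farthest from it.

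For 14 members a gene of at least 1 TPM lies on the opposite strand over part of the locus, and the use of strand in counting is not stated. The largest such neighbours were Cyhr1 with 63.5 TPM over Kifc2 and Cdc23 with 30.1 TPM over Kif20a. Tmem181a had 25.3 TPM opposite Dynlt1a, and Ercc2 had 14.9 TPM opposite Klc3. Whole gene spans were compared here, not exons. For the low members Kif20a, Kif18a, Kif4, Kif7 and Klc3, whether reads of such a neighbour were counted as theirs was not tested.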

How the data were processed

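Total RNA of 2 samples labelled as a layer of hippocampus, 300 ng each with ERCC spike-ins per the labels, was used. All tables use mm10 and GENCODE M21, per the notes the authors deposited. Aligner and program versions were not given in the sources used here. Per the file headers, the deposited RSEM gene and transcript tables give expected counts, the authors' estimates that share reads among features, and TPM, which divides them by effective length and scales the sum to the same total in each library. The deposited posterior SD of the count (unit: signal) measures how uncertain that sharing is. The deposited kallisto table gives estimated counts and TPM per transcript, summed here per gene. The F1 mice carry a CAST/EiJ genome beside that of the reference strain, and its effect on alignment was not tested.

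Symbols came from the transcript table. In all, 26248 rows that name no gene, and the spike-ins (0.367% and 0.414% of library size), stayed out of library sizes. Levels are TPM per replicate and mean ± SD (n = 2). Ratios between replicates used rounded expected counts, TMM factors and a prior count of 0.5 in edgeR 4.0.16 (R 4.3.3), with no test; the code was tested on simulated data. DESeq2 1.42.0 gave alternative size factors. Other steps used Python 3.11.15, pandas 2.3.3, numpy 2.4.6 and matplotlib 3.10.9. Alternatives were other TPM, count and pseudocount settings, the kallisto table, other scalings and single replicates. Named were all members with a mean TPM of at least 1 and examples of the rest, the 5 highest and 5 lowest replicate ratios, leading transcripts of the 10 highest members, and the 3 highest genes of each pathway list. Members, classes and lists were chosen with earlier results of these data known. Coding sequences come from GENCODE M21 transcripts and promoters from RefSeq (GRCm38.p6). Protein sequences were not used here.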

Additional observations from a re-analysis of the deposited data

How the results depend on the processing

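The number of detected members was 51, and 57, 43 and 60 with a minimum of 0.5 TPM, a minimum of 5 TPM and the kallisto table. For mitotic kinesins alone it was 5, 0 and 7, and for other kinesins it fell to 2 at 5 TPM. With a pseudocount of 1, the class medians on the log2 scale were 5.71 (transport), 0.47 (mitotic), 1.23 (other) and 3.51 (dynein-2), and in kallisto 6.53, 0.14, 1.24 and 4.04, with 6.52 for dynein and 6.47 for dynactin. With members of at least 10 counts the dynein median was 5.79. Transport minus mitotic was 5.24 with a pseudocount of 1 and 6.40 in kallisto, and 6.56 to 6.89 in single replicates. In expected counts, Dynll1 over Dynll2 (0.450) and Dctn1 over Dync1h1 (0.349) reversed, as length is not divided out. The other ratios in expected counts were 4.35 (Kif5 over Klc), 2.52 (Klc1 over Klc2), 3.0 (Kif3c over Kif3b), 1.14 (Kif1a over Kif1b) and 2.38 (Dync1li2 over Dync1li1). In kallisto they were 1.12 (Kif5a over Kif5c), 1.90, 3.54 (Kif3c over Kif3b), 1.67 (Kif1a over Kif1b), 1.72, 2.77 (Dynll1 over Dynll2) and 1.61 (Dctn1 over Dync1h1). Leaving out transcripts under 300 bases, an alternative chosen after seeing the data, gave 1.57 (Kif5 over Klc), 3.04 (Klc1 over Klc2) and 1.67 (Dync1li2 over Dync1li1). In single replicates Dync1i1 over Dync1i2 ranged from 0.975 to 1.14, crossing 1. Members over 2-fold apart numbered 1 (Kif15) with a count minimum of 10 and 2 (Kif15 and Dynlrb2) with none, and 0 under the other scalings. The median leading share was 58.3% in kallisto and 63.8% over members of at least 1 TPM. With spike-in scaling the ratios of Kif5a and Dynll1 were -0.029 and -0.0207. Unless stated, the cause was not tested. With 9 to 61 counts, levels of mitotic kinesins other than Kif2b carry wide counting error. No paired analysis was possible because there was only 1 group.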
